A study of Mus musculus with 42 samples.

Results

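Perm1 and the genes of the PGC-1 and estrogen-related receptor (ERR) circuit were followed in the tibialis anterior muscle of mice whose hindlimb had been immobilized or denervated. The genes were chosen by symbol, as the rows of the deposited table named Perm1, Ppargc1a, Ppargc1b, Esrra, Esrrg, Tfam, Nrf1 and Gabpa. All 8 were found, among 13809 genes in all. The rule itself takes no measured value, although the genes were picked when earlier results of these data were known.

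PGC-1α (encoded by Ppargc1a) and PGC-1β (Ppargc1b) are transcriptional coactivators: they bind no DNA themselves and are recruited by nuclear receptors and other factors to genes of mitochondrial biogenesis and oxidative metabolism. ERRα (Esrra) and ERRγ (Esrrg) are orphan nuclear receptors that bring PGC-1 to many of these genes, Perm1 is a striated muscle regulator that is itself induced by PGC-1 and ERR and feeds back on the same programme, and NRF1 (Nrf1) and the GABP α subunit (Gabpa, also called NRF2) are the factors through which PGC-1 reaches nuclear genes for mitochondrial proteins. TFAM, encoded by one of those targets, packages and transcribes mitochondrial DNA. In skeletal muscle, contractile activity and calcium signalling are the best known inducers of Ppargc1a.

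RNA sequencing covered 42 libraries of male C57BL/6J mice aged 4 months, in 11 groups and 2 sets, a division that the labels name without explaining it. Set 1 (22 libraries) held basal and immobilized muscle of wild-type (WT) mice, of Sesn1SkM-Tg mice, which carry human sestrin 1 under the muscle creatine kinase promoter, and of Sesn2SkM-Tg mice, in which sestrin 2 is driven in muscle by a tetracycline-regulated transgene. Set 2 (20 libraries) held basal and immobilized muscle of WT and of Sesn1KO mice, which lack sestrin 1 in every tissue, and denervated muscle of WT mice. Each group had 4 libraries, except for immobilized WT and immobilized Sesn1SkM-Tg muscle of set 1 with 3 each. Basal mice had not been operated on or immobilized, immobilization was of 1 hindlimb, for denervation a piece of the sciatic nerve was cut out, and both were sampled after 3 days. The study asked whether sestrins, the stress-responsive proteins whose genes were altered in these lines, protect muscle from atrophy in disuse and aging. Its RNA sequencing served to look into the mechanism of that protection, beside its measures of muscle force, fibre size, signalling and autophagy.

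The values were normalized counts. They summed to between 722430 and 1276769 per library, with the lowest sums in denervated muscle (722430 to 811541), and the read depth behind them is unknown. The libraries were muscle: the 6 fast fibre markers (Ckm, Acta1, Myh4, Myh1, Tnnt3, Actn3) summed to 48240 or more in every library. In basal muscle the altered genes followed the labels. Sesn1 was at 59.4 ± 15.5 (SD, n = 4) in Sesn1SkM-Tg against 18.5 ± 3.37 (SD, n = 4) in WT muscle, and Sesn2 at 10.8 ± 2.97 (SD, n = 4) in Sesn2SkM-Tg against 2.63 ± 0.524 (SD, n = 4) in WT muscle. Both transgenes are human, while reads were quantified against mouse transcripts. In set 2, Sesn1 was at 9.14 ± 0.676 (SD, n = 4) in basal Sesn1KO against 25.8 ± 3.67 (SD, n = 4) in basal WT muscle. Sesn1 was not at 0 in the knockout, but no deposited value of any gene was. It was at 26.0 ± 8.48 (SD, n = 4) in immobilized Sesn1KO against 41.0 ± 9.24 (SD, n = 4) in immobilized WT muscle. These ranges overlapped (19.4 to 37.3 and 30.7 to 53.1), so the knockout label was followed less clearly there. In 2 libraries of set 1, basal WT replicate 4 and basal Sesn2SkM-Tg replicate 2, GC-rich and short genes lay above and GC-poor and long genes below their group means: between the quartiles of genes with the highest and the lowest GC content, the median deviation differed by 0.72 and 0.62 on the log2 scale, against -0.26 to 0.32 in the other libraries, and long minus short genes differed by -0.52 and -0.69, against -0.21 to 0.32. Values without these 2 libraries are given beside most results of the 8 genes in set 1, but not for the gene lists and markers.

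Perm1 was the most abundant of the 8 genes per length of transcript. In basal WT muscle of set 2 its level was 88.9 ± 6.02 normalized counts per kb of exon sequence (SD, n = 4), followed by Esrra at 25.5 ± 2.17 and Tfam at 10.7 ± 0.258. Ppargc1a (7.11 ± 0.305) and Gabpa (6.81 ± 0.445) were next and lay within 1 SD of each other, then came Esrrg (4.13 ± 0.717), Ppargc1b (2.26 ± 0.372) and Nrf1 (0.966 ± 0.0944). After denervation the order was another one. Esrra (7.66 ± 0.462) and Tfam (7.65 ± 0.79) led, with Gabpa at 5.45 ± 0.23, and Perm1, at 2.69 ± 0.69 per kb, lay beside Esrrg at 2.81 ± 0.918 (all SD, n = 4). Ppargc1b was the lowest, at 0.698 ± 0.109 per kb. These levels depend on the length used. Per kb of the longest transcript, Esrra was at 13.5 and Tfam at 8.15 after denervation, Nrf1 was at 2.46 in basal muscle, and in the 3 immobilized groups of set 1 Esrra (19.3 to 29.5) lay above Perm1 (12.5 to 19.5), which led per kb of all exon sequence.

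Perm1 (ENSMUSG00000078486) lies on the plus strand of chromosome 4 at 156215868 to 156221307 in GRCm38, with 3901 bases of exon sequence in the GENCODE M21 annotation. Ppargc1a (ENSMUSG00000029167) spans 51454250 to 51567726 on the minus strand of chromosome 5. Esrra (ENSMUSG00000024955) occupies 6910977 to 6921813 on the minus strand of chromosome 19, and Esrrg (ENSMUSG00000026610) 187608791 to 188214885 on the plus strand of chromosome 1. Tfam (ENSMUSG00000003923) is at 71225464 to 71238280 on the minus strand of chromosome 10, Nrf1 (ENSMUSG00000058440) at 30047988 to 30153458 on the plus strand of chromosome 6 and Gabpa (ENSMUSG00000008976) at 84834925 to 84863779 on the plus strand of chromosome 16. Ppargc1b is ENSMUSG00000033871. All 8 are protein-coding.

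RefSeq start sites of GRCm38.p6 gave promoter windows of 300 bases (250 before and 50 after the start) for 7 of the 8 genes, Ppargc1b being the exception. The 250 bases before the start are shown for the 4 genes called lower in denervated than in immobilized muscle. These differed by very unlike amounts, as described further on. Capitals mark matches to 4 motifs searched on both strands: TNAAGGTCA (the ERR response element), GCGCATGC (the NRF1 core), CCGGAAGT (the GABP site) and TGACGTCA (the cAMP response element), none of which overlapped another match here.
Perm1, chr4:156215677-156215926, plus strand: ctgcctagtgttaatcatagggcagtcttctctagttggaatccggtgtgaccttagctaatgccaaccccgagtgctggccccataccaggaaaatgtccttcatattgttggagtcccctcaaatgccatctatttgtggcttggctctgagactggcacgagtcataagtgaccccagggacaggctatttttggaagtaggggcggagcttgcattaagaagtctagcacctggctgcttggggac
Ppargc1a, chr5:51567726-51567975, minus strand: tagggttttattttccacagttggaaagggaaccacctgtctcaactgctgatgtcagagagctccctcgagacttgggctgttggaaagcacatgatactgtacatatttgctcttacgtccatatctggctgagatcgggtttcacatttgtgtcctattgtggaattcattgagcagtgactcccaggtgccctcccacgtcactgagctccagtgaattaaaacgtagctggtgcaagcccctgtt
Esrra, chr19:6921809-6922058, minus strand: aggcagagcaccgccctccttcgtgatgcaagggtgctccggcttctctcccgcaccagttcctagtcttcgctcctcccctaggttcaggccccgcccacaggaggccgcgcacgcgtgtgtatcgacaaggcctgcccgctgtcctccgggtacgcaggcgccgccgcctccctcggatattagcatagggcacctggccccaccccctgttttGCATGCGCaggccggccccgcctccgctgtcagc
Tfam, chr10:71238045-71238294, minus strand: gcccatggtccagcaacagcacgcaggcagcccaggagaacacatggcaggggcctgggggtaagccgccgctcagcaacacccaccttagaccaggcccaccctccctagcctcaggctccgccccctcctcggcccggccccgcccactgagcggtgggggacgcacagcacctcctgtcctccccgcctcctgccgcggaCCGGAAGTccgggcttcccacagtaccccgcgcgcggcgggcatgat

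The 7 genes had 11 such windows, because Esrrg has 4 start sites in this table and Nrf1 has 2, and 2 of the 11 windows held a match. Esrra held an NRF1 core on the opposite strand, whose first base in the printed strand is at -34 from the start, and Tfam held a GABP site at -47. Over all 32851 promoter windows of this length, 2.71% held the NRF1 core, 3.89% the GABP site, 1.28% the ERR element and 1.79% the cAMP response element. Only exact matches to these letters were searched, and near matches were not counted. No window of Perm1 or Ppargc1a held an exact match to any of the 4, which does not exclude similar elements. Base composition differed among the printed genes, with a GC content of the window of 52.3% for Perm1 and 48.7% for Ppargc1a, against 66.0% for Esrra and 70.3% for Tfam, where the median over all windows was 52.7%.

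Denervation lowered 7 of the 8 genes. Perm1 fell most, to 3.25% of its basal level, followed by Ppargc1a (24.4%), Esrra (30.7%) and Ppargc1b (37.9%). Esrrg, Tfam and Gabpa fell less, to 67.5%, 72.1% and 80.7%, and Nrf1 did not pass the test. Over all genes the same test called 55.5% in either direction, so that a call by itself sets no gene of the 8 apart. The median log2 fold change of the 8 genes was -0.98, against -0.03 over all genes tested. These percentages are on the log2(normalized count + 1) scale, as are all fold changes here, and the tests are limma's moderated tests adjusted over all genes (Benjamini-Hochberg), with a gene called where the adjusted p was below 0.05 and the log2 fold change was 0.25 or more in either direction. The added count of 1 raises the percentages of low genes. As plain ratios of mean counts, Perm1 was at 0.0302, Ppargc1a at 0.230, Esrra at 0.300 and Ppargc1b at 0.309, so that Ppargc1b lay beside Esrra.

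In the 4 basal WT libraries of set 2, Perm1 stood at 364, 370.3, 328 and 326 normalized counts, and in the 4 denervated ones at 9.16, 14.5, 9.55 and 8.74. The groups were far apart, and the highest denervated library was below the lowest basal one by more than 1 order of magnitude. The log2 fold change of -4.94 (SE 0.12, limma adjusted p = 3.6e-17) was the second largest decrease among 13629 genes. Ppargc1a, the coactivator upstream of Perm1, went from 47.0, 49.7, 45.7 and 45.1 to 11.4, 8.21, 11.2 and 12.3. These ranges did not overlap either (log2 fold change -2.04, SE 0.18, limma adjusted p = 4.5e-09). Ppargc1b, its less abundant relative, went from 7.19, 10.2, 10.3 and 8.47 to 3.25, 2.94, 2.74 and 2.21, again without overlap (-1.40, SE 0.22, limma adjusted p = 1.3e-05).

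Of the receptors, Esrra fell from 119, 120.5, 106 and 102 to 33.2, 31.3, 36.2 and 33.7. All 4 denervated libraries lay within 5 normalized counts of each other, and the log2 fold change was -1.70 (SE 0.10, limma adjusted p = 1.4e-11). Esrrg, which is typical of oxidative fibres, was more variable, with 24.4, 29.1, 29.2 and 19.9 in basal and 14.4, 11.7, 24.7 and 19.0 in denervated muscle. The groups overlapped through denervated replicate 3 (log2 fold change -0.57, SE 0.20, limma adjusted p = 0.019), and leaving out single libraries raised the adjusted p to as much as 0.092, with the call lost in 4 of 8 such fits (without basal replicates 2 or 3 or denervated replicates 1 or 2).

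Among the downstream factors, Tfam went from 47.7, 48.2, 45.6 and 47.7 to 28.9, 34.7, 37.1 and 35.1. Its groups did not overlap (log2 fold change -0.47, SE 0.09, limma adjusted p = 9.8e-05). Gabpa went from 39.1, 40.2, 35.02 and 40.5 to 29.9, 32.5, 31.8 and 29.95, also without overlap (-0.31, SE 0.08, limma adjusted p = 0.0034). Nrf1 was at 11.2, 10.1, 9.0 and 9.38 in basal and at 10.2, 11.8, 12.6 and 10.5 in denervated muscle. Its ranges overlapped, with a log2 fold change of 0.17 (95% confidence interval -0.12 to 0.45, limma adjusted p = 0.31).

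The smaller of these changes depended on how libraries were scaled. When each library was scaled to the same sum, the median over all genes in denervated muscle moved to 0.35 on the log2 scale. Over all genes the calls went from 7567 to 8254, and the share of them that were higher from 50.1% to 77.2%. The members called became 4 lower and 1 higher. Perm1 (-4.51), Ppargc1a (-1.60), Esrra (-1.25) and Ppargc1b (-1.03) stayed lower, Tfam (-0.02, limma adjusted p = 0.88) and Esrrg (-0.12, limma adjusted p = 0.62) lost the call, Gabpa turned to 0.15 (limma adjusted p = 0.2) and Nrf1 was called higher at 0.60 (limma adjusted p = 5.8e-04). Relative to the moved median, Tfam, Esrrg and Gabpa were still below it, by -0.36, -0.47 and -0.20, and Nrf1 was 0.25 above.

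**Figure D1:**
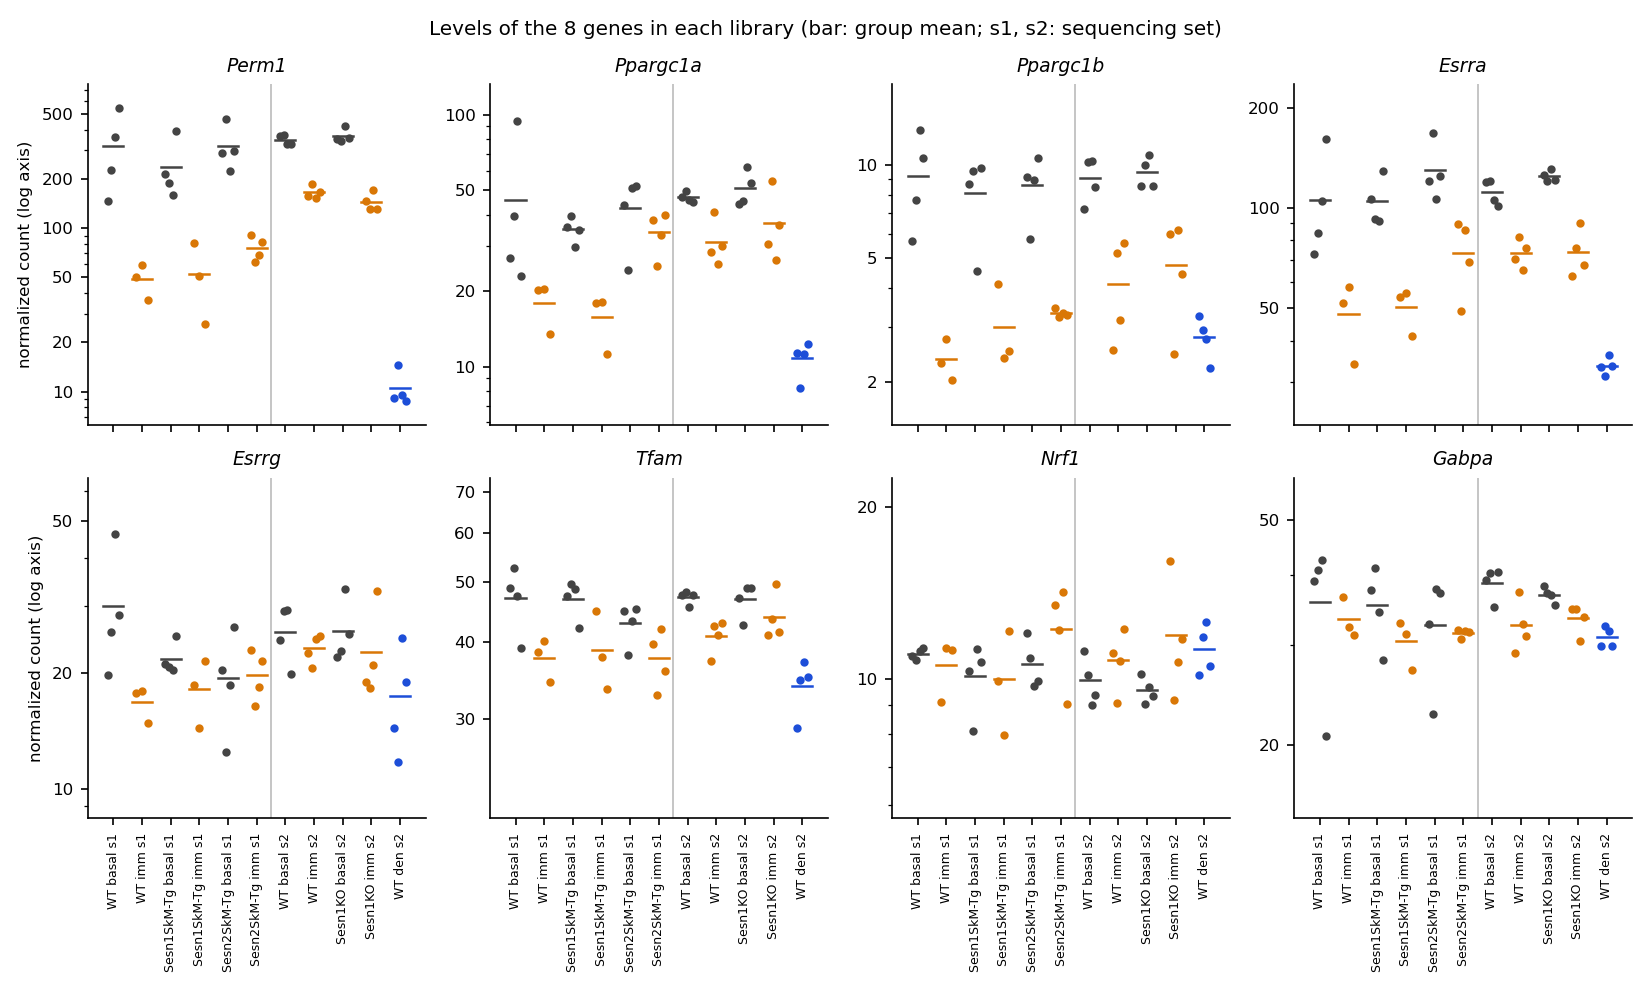
Normalized counts (log axis) of each of the 8 genes in every library, by group, with the group mean as a bar. Set 1 is left and set 2 right of the grey line. Perm1 in the 4 denervated libraries lies between 8.74 and 14.5, below every other library.

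Immobilization for 3 days lowered the coactivator end of the circuit in WT muscle of both sets. Perm1, Ppargc1a, Ppargc1b and Esrra were called lower in both, Esrrg in set 1 alone, and Tfam, Nrf1 and Gabpa in neither. These were 5 of 8 genes in set 1, where 29.3% of all genes were called, and 4 of 8 in set 2, where 33.9% were. The median log2 fold change of the 8 genes was -0.91 in set 1 and -0.42 in set 2, against 0.00 and -0.02 over all genes tested. Whether any gene but Perm1 differed in its response between the sets is taken up further on.

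Perm1 in set 2 went from the basal values above to 158, 187, 152 and 165 after immobilization, without overlap (log2 fold change -1.06, SE 0.12, limma adjusted p = 1.5e-06). In set 1 it was 146, 226, 360.3 and 539 in basal and 50.4, 59.4 and 36.3 in immobilized muscle. The basal libraries of set 1 were widely spread, and the lowest of them was still above the highest immobilized one (-2.54, SE 0.39, limma adjusted p = 1.1e-04). Without the 2 libraries that stand apart the value was -2.24 (SE 0.36, limma adjusted p = 2.2e-04).

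Ppargc1a after immobilization in set 2 was 28.4, 41.0, 25.6 and 29.97, all below the basal libraries (log2 fold change -0.59, SE 0.18, limma adjusted p = 0.013). In set 1 it was 27.1, 39.7, 94.1 and 22.9 in basal and 20.05, 20.3 and 13.5 in immobilized muscle. The ranges did not overlap, but basal replicate 3 was far above the other 3 (-1.11, SE 0.34, limma adjusted p = 0.018). Without the 2 libraries that stand apart the set 1 value of Ppargc1a was -1.36 (SE 0.30, limma adjusted p = 0.0023). Without basal replicate 3 it was -0.69 (limma adjusted p = 0.059), without immobilized replicate 3 it was -0.92 (limma adjusted p = 0.11), and in set 2 the call was lost without immobilized replicate 3 (-0.51, limma adjusted p = 0.051). Ppargc1b was 2.54, 5.21, 3.16 and 5.58 in immobilized muscle of set 2 (-1.01, SE 0.22, limma adjusted p = 0.0012). In set 1 it went from 5.69, 7.71, 12.9 and 10.5 to 2.31, 2.75 and 2.03 (-1.55, SE 0.25, limma adjusted p = 1.8e-04). Its groups did not overlap in either set, and without the 2 libraries the set 1 value was -1.48 (SE 0.25). Because Ppargc1b is low, the added count of 1 shrinks these values, and on plain log2 values they were -1.19 in set 2 and -1.90 in set 1 for Ppargc1b, and -1.70 in denervated muscle.

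Esrra was 70.2, 82.1, 65.3 and 75.9 in immobilized muscle of set 2 (log2 fold change -0.60, SE 0.10, limma adjusted p = 9.2e-05). In set 1 it went from 72.5, 84.0, 105 and 160.5 to 52.0, 57.9 and 34.1 (-1.09, SE 0.25, limma adjusted p = 0.0027). Neither set had overlapping groups, and without the 2 libraries the set 1 value was -0.86 (SE 0.21, limma adjusted p = 0.0049). Esrrg was 22.6, 20.7, 24.7 and 25.1 in set 2, inside the basal range (-0.12, 95% confidence interval -0.54 to 0.29, limma adjusted p = 0.67). In set 1 Esrrg went from 19.8, 25.6, 46.4 and 28.4 to 17.8, 18.0 and 14.8 (-0.74, SE 0.23, limma adjusted p = 0.021). That call was lost without basal replicate 3 (-0.51, limma adjusted p = 0.08) and without immobilized replicate 3 (-0.65, limma adjusted p = 0.1).

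Tfam in immobilized WT muscle had log2 fold changes of -0.31 in set 1 (SE 0.13, limma adjusted p = 0.071) and -0.21 in set 2 (SE 0.09, limma adjusted p = 0.072). In set 1 without the 2 libraries that stand apart, Tfam was called, at -0.39 (SE 0.11, limma adjusted p = 0.012). In that fit 35% of all genes were called, against 29.3% with the 2 libraries. Gabpa was at -0.05 in set 1 (SE 0.20, limma adjusted p = 0.88) and at -0.25 in set 2 (SE 0.08, limma adjusted p = 0.027), where it passed the p threshold and missed the fold threshold narrowly. Without the 2 libraries that stand apart, one of which holds the lowest basal Gabpa, the set 1 value of Gabpa was -0.28 (SE 0.12, limma adjusted p = 0.07). Nrf1 was at -0.07 and 0.11 with adjusted p of 0.78 and 0.59 in limma's test.

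With libraries scaled to equal sums, the median of all genes moved to 0.28 in set 1 and 0.08 in set 2. The calls over all genes went from 4018 to 4834 in set 1 and from 4624 to 4564 in set 2. The share of them that were higher went from 50.7% to 84.7% and from 47.7% to 64.4%. In each set 3 members were called, all lower. Perm1, Ppargc1b and Esrra kept their calls in both. Ppargc1a lost it in both, at -0.78 (limma adjusted p = 0.089) and -0.47 (limma adjusted p = 0.077), and Esrrg in set 1 (-0.41, limma adjusted p = 0.2). In set 1, a fit of the 2 compared groups alone also called 3.

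**Figure D2:**
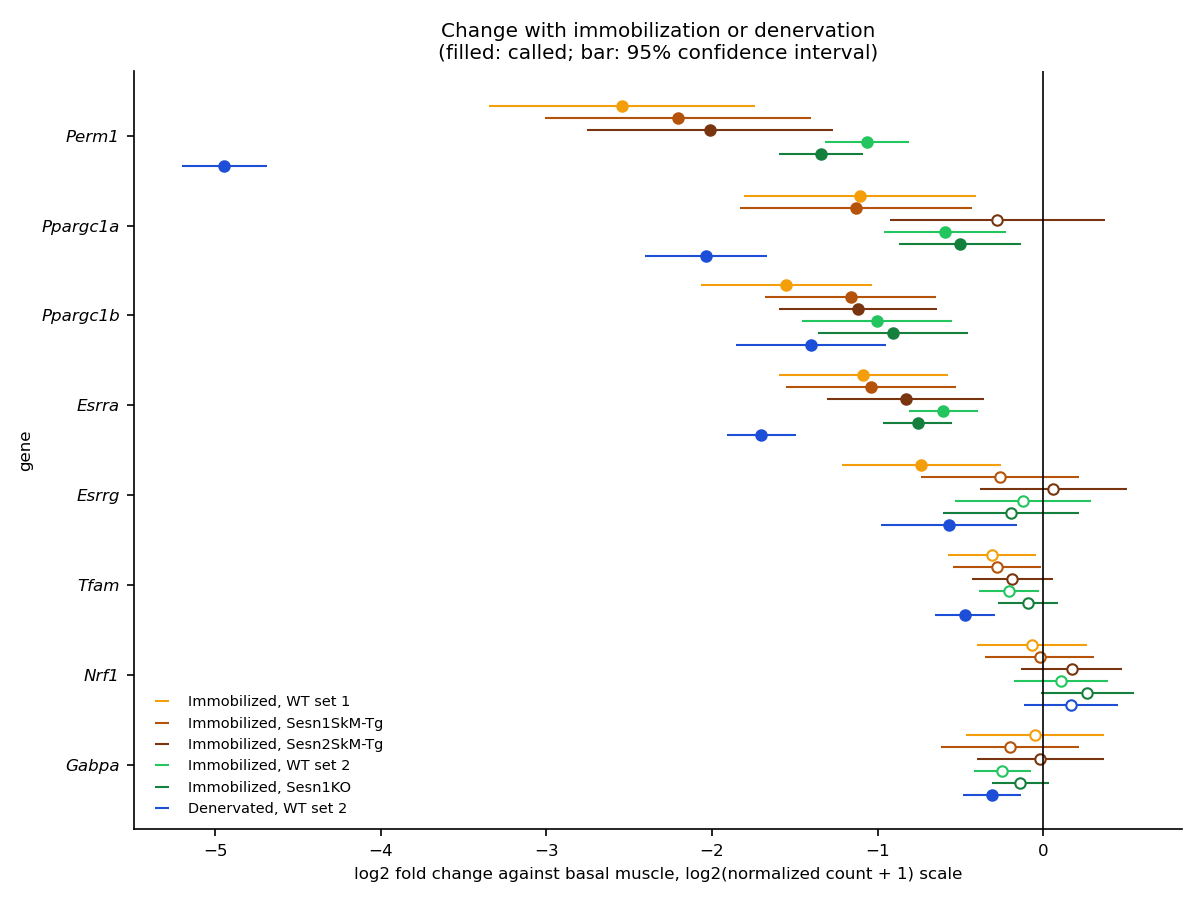
Log2 fold change of each gene after immobilization (5 comparisons) or denervation against basal muscle of the same genotype and set. Filled points passed the test, and bars are 95% confidence intervals. Perm1, Ppargc1b and Esrra are filled in all 6 comparisons and Nrf1 in none.

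Denervated and immobilized WT muscle of set 2 differed in 4 of the 8 genes, all lower after denervation, where 38.9% of all genes were called. Perm1 was 3.88 lower on the log2 scale (SE 0.12, limma adjusted p = 5.3e-15), with 152 as its lowest immobilized and 14.5 as its highest denervated library. Ppargc1a was 1.45 lower (-1.45, SE 0.18, limma adjusted p = 1.7e-06) and Esrra 1.10 lower (-1.10, SE 0.10, limma adjusted p = 2.9e-08). Ranges did not overlap for these genes. Tfam differed by -0.26 (SE 0.09, limma adjusted p = 0.02), a call lost in 3 of 8 fits with a library left out (denervated replicate 1 or immobilized replicates 2 or 4, -0.19 without the first). Ppargc1b, by contrast, was at -0.39 (95% confidence interval -0.85 to 0.06, limma adjusted p = 0.16), with levels of 2.21 to 3.25 after denervation and 2.54 to 5.58 after immobilization. With equal sums the median of all genes moved to 0.26. The calls over all genes went from 5297 to 6695, and the share of them that were higher from 52.7% to 82.3%. Perm1 (-3.57), Ppargc1a (-1.13) and Esrra (-0.77) were called lower on that scale. Tfam turned to 0.07 (limma adjusted p = 0.53), and Gabpa (0.27, limma adjusted p = 0.023) and Nrf1 (0.38, limma adjusted p = 0.024) were called higher. Relative to the moved median these last 3 were at -0.19, 0.01 and 0.12.

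The sestrin lines were compared with WT muscle to ask whether sestrins alter the response of these genes to immobilization, and no difference was called. In Sesn1SkM-Tg muscle 4 members were called lower (34.7% of all genes called), in Sesn2SkM-Tg muscle 3 (30.7%) and in Sesn1KO muscle 4 (37.1%). Perm1, Ppargc1b and Esrra were called in all 3 genotypes, and Ppargc1a in Sesn1SkM-Tg and Sesn1KO muscle. With equal sums the members called were 3 lower in each, with 1 higher (Nrf1) in Sesn2SkM-Tg and Sesn1KO muscle. The calls over all genes went from 4756 to 5021, from 4204 to 4892 and from 5054 to 4937. The share of them that were higher went from 52.3% to 82.6%, from 48.9% to 80.4% and from 46.4% to 60.1%, as the median of all genes moved to 0.25, 0.26 and 0.06.

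In Sesn1SkM-Tg muscle, Perm1 went from 213, 188, 159 and 391 to 80.6, 51.2 and 26.0 (log2 fold change -2.21, SE 0.39, limma adjusted p = 3e-04). Ppargc1a went from 35.9, 39.5, 29.9 and 34.9 to 17.9, 18.0 and 11.2 (-1.13, SE 0.34, limma adjusted p = 0.013). Both had groups that did not overlap, although the Ppargc1a call was lost without immobilized replicate 3 (-0.92, limma adjusted p = 0.091) and with equal sums (-0.84, limma adjusted p = 0.067). Ppargc1b (-1.16, SE 0.25) and Esrra (-1.04, SE 0.25) fell as well, with adjusted p of 0.0014 and 0.0029 in limma's test. Without the 2 libraries that stand apart, which are not of these groups but share the fit, Tfam was called too (-0.28, limma adjusted p = 0.041). In that fit 42.3% of all genes were called, against 34.7% with the 2 libraries.

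In Sesn2SkM-Tg muscle, Perm1 went from 288, 467, 222 and 295 to 91.1, 61.8, 68.4 and 82.7 (log2 fold change -2.01, SE 0.36, limma adjusted p = 2.5e-04). Without the 2 libraries that stand apart it was -1.81 (SE 0.34, limma adjusted p = 3.9e-04). Ppargc1a was 43.6, 24.2, 51.0 and 51.9 in basal and 38.3, 25.2, 33.2 and 39.8 in immobilized muscle, which overlap (-0.28, 95% confidence interval -0.93 to 0.37, limma adjusted p = 0.54). The low basal library here was replicate 2, one of those that stand apart, and without them the value was -0.52 (SE 0.28, limma adjusted p = 0.15). Ppargc1b was at -1.12 (SE 0.23, limma adjusted p = 9.7e-04) and Esrra at -0.83 (SE 0.23, limma adjusted p = 0.0084), or -1.28 and -0.70 without the 2 libraries, and with equal sums Nrf1 was called higher (0.46, limma adjusted p = 0.028).

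In Sesn1KO muscle, Perm1 went from 352, 342, 418 and 357 to 147, 131, 170.2 and 130.4 (log2 fold change -1.34, SE 0.12, limma adjusted p = 4.5e-08). Ppargc1a went from 44.2, 45.3, 61.9 and 53.6 to 30.6, 54.7, 26.4 and 36.3 (-0.50, SE 0.18, limma adjusted p = 0.031). Its groups overlapped through immobilized replicate 2, and the call was lost in 4 of 8 fits with a library left out (basal replicates 3 or 4 or immobilized replicates 1 or 3, adjusted p up to 0.12 in limma's test) and with equal sums (-0.39, limma adjusted p = 0.14). Ppargc1b was at -0.91 (SE 0.22, limma adjusted p = 0.0023) and Esrra at -0.76 (SE 0.10, limma adjusted p = 4.9e-06). Nrf1 was at 0.27 (SE 0.14, limma adjusted p = 0.13) and, with equal sums, was called higher (0.37, limma adjusted p = 0.036).

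The difference between the immobilization effects was tested directly. None of the 8 genes was called for Sesn1SkM-Tg, Sesn2SkM-Tg or Sesn1KO minus WT. Over all genes 0% (0 of 13705), 0.0073% and 0.022% were called in limma's test. An unadjusted p under 0.05 in that test was reached by 401 of 13705 genes for Sesn1SkM-Tg. For Sesn2SkM-Tg 1008 of 13705 genes reached it, and for Sesn1KO 1087 of 13629. The intervals show what these designs could see. For Perm1 the 95% confidence interval of the difference was -0.79 to 1.47 for Sesn1SkM-Tg, -0.56 to 1.62 for Sesn2SkM-Tg and -0.64 to 0.08 for Sesn1KO. For Ppargc1a it was -1.02 to 0.97, -0.13 to 1.79 and -0.43 to 0.61. Esrrg had the lowest unadjusted p of the 8 genes for the Sesn2SkM-Tg difference, 0.019 (difference 0.80, SE 0.31, limma adjusted p = 0.59). Without the 2 libraries that stand apart it was 0.61 (SE 0.30, limma adjusted p = 0.71). In that fit no member was called for either transgenic line, with 0% of all genes called.

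Genotypes were also compared within each condition, and no member was called in any of the 6 comparisons. Basal Sesn1SkM-Tg against basal WT muscle had 0.0292% of all genes called, and immobilized against immobilized 0.0073%. For Sesn2SkM-Tg the shares were 2.5% in basal and 2.94% in immobilized muscle, and for Sesn1KO 0.147% and 0.947%. With equal sums the share of these calls that were higher went from 56.1% to 43.2% in immobilized Sesn2SkM-Tg and from 55.8% to 44.8% in immobilized Sesn1KO muscle, and still no member was called. At an unadjusted p under 0.05 in limma's test, 3 of these 48 values passed (6.25%, where 8236 of 82078 values over all genes did in these 6 comparisons, 15.6% in basal and 19.2% in immobilized Sesn2SkM-Tg muscle). They were basal Esrrg (log2 difference -0.58, SE 0.21, limma adjusted p = 0.18), immobilized Ppargc1a (0.89, SE 0.34, limma adjusted p = 0.15) and immobilized Esrra (0.60, SE 0.25, limma adjusted p = 0.19). Without the 2 libraries that stand apart, basal Esrrg was at -0.39 (limma adjusted p = 0.41). Immobilized Ppargc1a and Esrra then had limma adjusted p of 0.057 and 0.071, at unchanged differences. That fit called 7.88% of all genes in immobilized Sesn2SkM-Tg against WT muscle, where 2.94% were called with the 2 libraries. Immobilized Ppargc1a was 25.2 to 39.8 in Sesn2SkM-Tg against 13.5 to 20.3 in WT muscle, without overlap. Perm1 (61.8 to 91.1 against 36.3 to 59.4) and Ppargc1b (3.25 to 3.46 against 2.03 to 2.75) did not overlap there either. In a fit of those 2 groups alone Ppargc1a was called (limma adjusted p = 0.046). The shares of all genes without overlap or called in that fit are not given here. For the same 2 groups in the fit of all set 1 libraries, 2 of 6 macrophage and leukocyte markers were lower (median log2 difference of the 6 -1.09). Of the fibroblast markers 1 of 5 was lower (-1.02), and of the slow fibre markers 1 of 6 was higher (1.203). The part of these cells and fibres in the Ppargc1a values was not tested. In set 2, the basal Sesn1KO intervals were -0.18 to 0.34 for Perm1 and -0.26 to 0.48 for Ppargc1a.

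**Figure D3:**
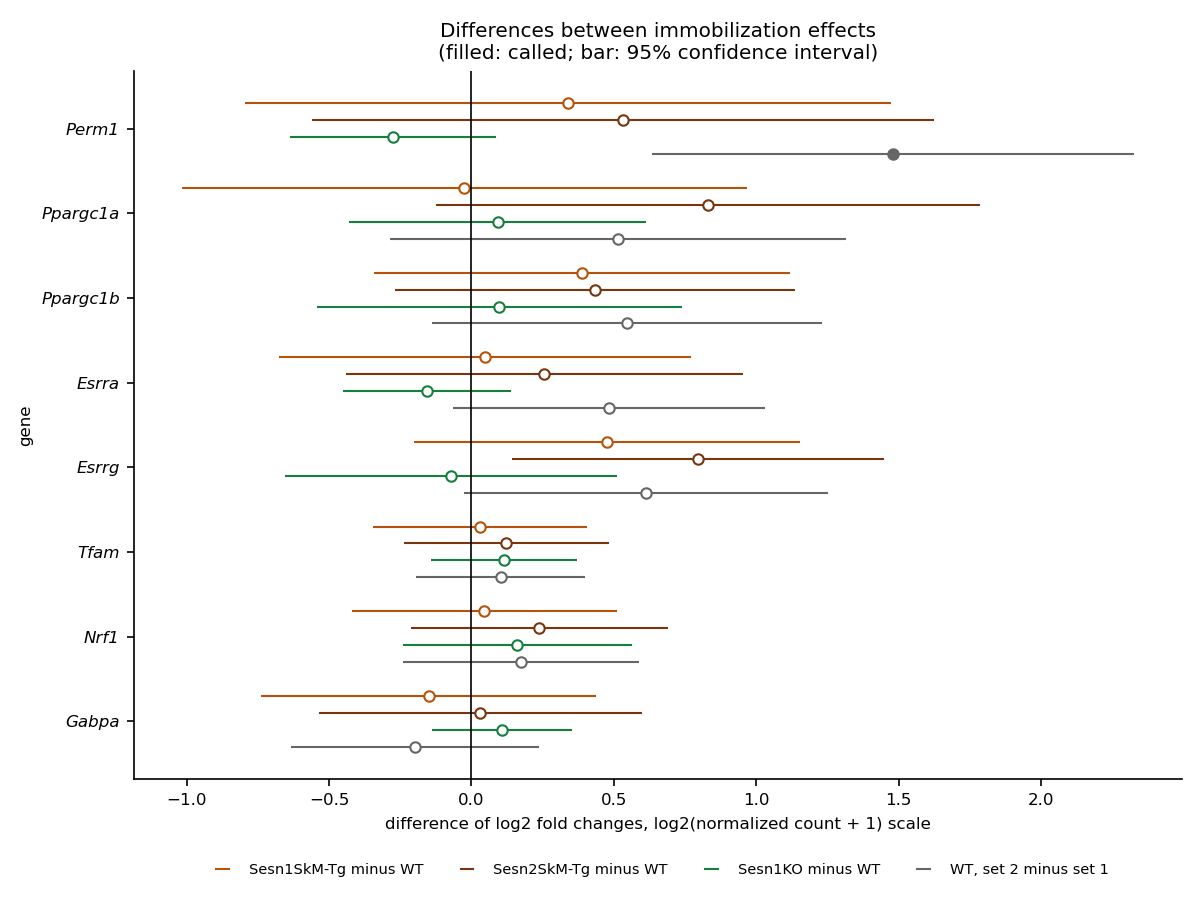
Differences between immobilization effects (log2 scale) for each gene: 3 lines minus WT of the same set, and WT of set 2 minus WT of set 1. Filled points passed the test, and bars are 95% confidence intervals. Only Perm1 between the sets is filled, at 1.48.

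Of the 8 genes, only Perm1 was called for a difference of the WT response to immobilization between the sets, with 6.2% of all genes called. The fall of Perm1 was 1.48 smaller in set 2 (difference 1.48, SE 0.42, limma adjusted p = 0.027). Leaving out 1 library at a time gave 1.17 to 1.80, and the call was lost in 5 of 15 such fits (without basal WT replicates 3 or 4 or immobilized replicate 3 of set 1, and without basal replicate 3 or immobilized replicate 2 of set 2), with adjusted p up to 0.11. Without the 2 libraries that stand apart it was 1.17 (SE 0.38, limma adjusted p = 0.045), in a fit that called 9.28% of all genes. The other 7 differences ran from -0.20 for Gabpa to 0.61 for Esrrg, none called. The labels do not say how the sets differ, so that a difference in sequencing and one between cohorts of mice cannot be told apart. With equal sums the share of calls that were higher in this comparison went from 51% to 15.1%, while the median over all genes moved to -0.18.

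Markers of fibres and of other cell types were checked in the same comparisons. Over all genes, 27.8% were higher and 27.7% lower after denervation, and 16.2% and 17.7% after immobilization of WT muscle in set 2. For immobilized WT muscle of set 1 the shares were 14.9% and 14.5%. In Sesn1SkM-Tg and Sesn2SkM-Tg muscle 18.2% and 15% were higher. For the difference of the WT responses between the sets 3.04% were lower. A list with only 1 or 2 calls is not set apart by them. The summed fast fibre markers were 117081 to 129725 in basal and 48240 to 63331.8 in denervated WT muscle of set 2, where all 6 were called lower, and 107935 to 115800 after immobilization (2 lower and 1 higher of 6). In set 1 they were 106960 to 133185 in basal and 69769.4 to 85952 in immobilized WT muscle (3 lower of 6). The summed 6 slow fibre markers ranged from 43.2 to 119 in basal, 18.7 to 42.4 in denervated and 102 to 136 in immobilized muscle of set 2, with 1 higher and 1 lower of 6 after denervation and 2 higher after immobilization. The 6 macrophage and leukocyte markers summed to 9.55 to 46.1 in basal, 26.7 to 67.0 in denervated and 47.8 to 85.6 in immobilized muscle of set 2 (1 and 2 of 6 called higher), and to 13.6 to 22.8 and 69.0 to 141 in set 1 (6 of 6 higher). The 5 endothelial markers summed to 238 to 303 in basal and 120 to 154 in denervated muscle, all 5 called lower, as they were after immobilization (128 to 214). In set 1 the endothelial sums were 154 to 206 in basal and 198 to 232 in immobilized WT muscle, with 2 of 5 higher and 1 lower, and 4 of 5 were higher in both sestrin transgenic lines. The difference of the WT responses between the sets was called for 4 of the 5 endothelial markers, all lower in set 2. Fibroblast markers had 2 of 5 lower after denervation and none called after immobilization in set 2, against 3 of 5 higher in immobilized WT muscle of set 1. Satellite cell markers had 1 of 4 higher in both treatments of set 2 and 2 of 4 in set 1, and Schwann cell markers 2 of 4 lower after denervation, none called after immobilization in set 2 and 3 of 4 higher in set 1. No marker of these lists was at 0 in any library, but no deposited value of any gene was, so this does not show that the cells were present. Their part in the changes of the 8 genes was not tested, and in whole muscle fewer cells of a type and less RNA per cell cannot be told apart.

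Genes known as targets of PGC-1 and ERR were examined next. Of 33 oxidative metabolism targets, 32 were lower in denervated muscle and none higher, where 27.7% of all genes were lower and 27.8% higher (median log2 fold change -1.29, against -0.03 over all genes). Fabp3, a fatty acid-binding protein, fell from 351 ± 40.6 to 71.9 ± 17.2 (log2 fold change -2.29, SE 0.22, limma adjusted p = 2.3e-08), and Cpt1b, the muscle carnitine palmitoyltransferase that admits fatty acids to mitochondria, from 359.8 ± 19.9 to 86.0 ± 16.9 (-2.07, SE 0.12, limma adjusted p = 1.9e-11; SD, n = 4). The exception was Pdk4, a kinase that shuts off pyruvate dehydrogenase (0.46, SE 0.27, limma adjusted p = 0.16), named here after its value was seen. After immobilization 24 of the 33 were lower in each WT set, where 14.5% of all genes were in set 1 and 17.7% in set 2, with medians of -0.82 and -0.53, and in set 2 Pdk4 (1.08, SE 0.27, limma adjusted p = 0.0035) and Lpin1 (0.56, SE 0.14, limma adjusted p = 0.0036) rose. The largest decreases in set 2 were those of Vegfa, the angiogenic factor (-1.40, SE 0.12, limma adjusted p = 2.4e-08), and Idh3a, a citrate cycle subunit (-0.95, SE 0.08, limma adjusted p = 2.2e-08). In Sesn1SkM-Tg, Sesn2SkM-Tg and Sesn1KO muscle 23, 20 and 25 of the 33 were lower (16.5%, 15.7% and 19.9% of all genes). None was higher in Sesn1SkM-Tg muscle, Pdk4 (1.61) and Lpin1 (0.56) were higher in Sesn2SkM-Tg muscle, and Pdk4 (2.24), Lpin1 (0.71) and Ucp3 (0.69), an uncoupling protein of muscle mitochondria, in Sesn1KO muscle.

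**Figure D4:**
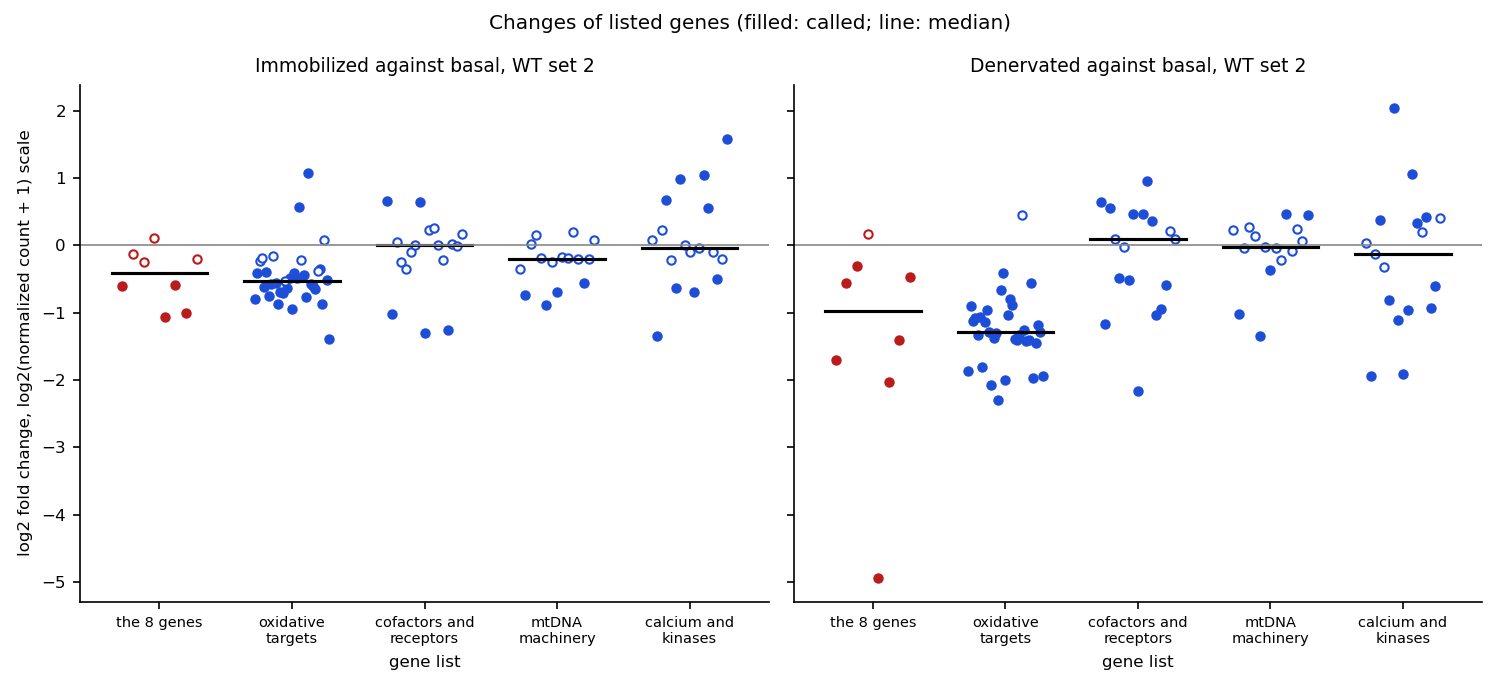
Log2 fold change of the 8 genes (red) and of the genes of 4 lists (blue) in immobilized (left) and denervated (right) against basal WT muscle of set 2. Filled points passed the test and the black line is the median, which for the oxidative targets was -0.53 and -1.29.

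Cofactors and partner receptors were split. After denervation 6 of 17 were higher and 7 lower, with a median of 0.09. This was near the split over all genes (27.8% higher and 27.7% lower), and after immobilization in set 2 the share called, 5 of 17, was below the 33.9% over all genes. The largest decreases were those of Ppara, the lipid-sensing receptor that PGC-1α also coactivates (log2 fold change -2.16, SE 0.25, limma adjusted p = 2.3e-07), from 10.9 ± 3.11 to 1.58 ± 0.254 normalized counts (SD, n = 4), and of Esrrb, the third ERR (-1.16, SE 0.29, limma adjusted p = 0.0018). The largest increases were those of Pprc1, the third member of the PGC-1 family (0.96, SE 0.14, limma adjusted p = 4.9e-06), which went from 12.9 ± 1.38 to 25.9 ± 1.93 (SD, n = 4), and of Crtc2, a CREB coactivator (0.64, SE 0.13, limma adjusted p = 1.9e-04). Pprc1 thus went in the other direction from Ppargc1a and Ppargc1b. After immobilization in set 2, Crtc2 (0.66) and the corepressor gene Nrip1 (0.64) were higher and Ppara (-1.30), the AMP kinase subunit gene Prkag3 (-1.25) and Esrrb (-1.02) lower, the other 12 of 17 not being called. In set 1 none was higher and 5 were lower, where 14.9% of all genes were higher and 14.5% lower. The 5 were Ppara (-1.54), Prkag3 (-0.70), Ncoa1 (-0.66), Rxra (-0.54) and Ncor1 (-0.51).

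Of 15 genes for transcription and replication of mitochondrial DNA, in which TFAM acts, 10 were not called after denervation (median -0.03), so that 5 of 15 were, against 55.5% of all genes. Mterfd3, of the mitochondrial transcription termination factor family (log2 fold change -1.34, SE 0.16, limma adjusted p = 6e-07), Gabpb2, a β subunit of GABP (-1.02, SE 0.11, limma adjusted p = 1.1e-07), and the polymerase gene Polg (-0.37, SE 0.13, limma adjusted p = 0.021) fell, and Ssbp1 (0.47) and Top1mt (0.45) rose. After immobilization in set 2, Mterfd3 (-0.89), Gabpb2 (-0.74), Polg (-0.69) and Tfb1m (-0.56) fell and none rose, where 17.7% of all genes were lower and 16.2% higher.

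The kinases and calcium-dependent factors that signal to Ppargc1a also went both ways. After denervation 5 of 17 were higher and 7 lower (median -0.12), where 27.8% of all genes were higher and 27.7% lower. Hdac4, a class II deacetylase that represses MEF2 (log2 fold change 2.04, SE 0.13, limma adjusted p = 3.4e-11), and Mef2a (1.06, SE 0.08, limma adjusted p = 7.7e-10) rose most, beside Ppp3ca (0.43), Camk2d (0.38) and Mef2c (0.34). Camk2a, a calcium/calmodulin-dependent kinase (-1.94, SE 0.17, limma adjusted p = 7.4e-09), and Hdac9 (-1.91, SE 0.20, limma adjusted p = 5.6e-08) fell most. After immobilization in set 2, 5 were higher and 4 lower, where 16.2% of all genes were higher and 17.7% lower. Among the increases were Rcan1, an inhibitor of calcineurin, at 1.58 (SE 0.23, limma adjusted p = 2e-05), Mef2c at 1.04, Hdac4 at 0.98, Camk2d at 0.67 and Mef2d at 0.55. Among the decreases were Camk2a at -1.35, Mapk14 at -0.70, Creb1 at -0.64 and Ppp3cb at -0.50.

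Across the 42 libraries, with each gene centred within its set, the 8 genes did not vary as one block. Pearson's r with Perm1 was 0.94 for Esrra, 0.82 for Ppargc1a, 0.81 for Ppargc1b and 0.73 for Tfam, and fell to 0.52 for Esrrg, 0.24 for Gabpa and -0.20 for Nrf1. The libraries share treatments and normalization, so these are descriptions without a test. Of the 8219 genes compared, those most like Perm1 were Kcnc1 (r = 0.97), A430046D13Rik (0.97), Eno3 (0.97), Tpi1 (0.96) and Lrrc39 (0.95). Kcnc1 encodes a voltage-gated potassium channel and Eno3 and Tpi1 glycolytic enzymes, and after denervation their log2 fold changes were -4.12 for Kcnc1, -2.82 for Eno3 and -3.05 for Tpi1. Those most like Ppargc1a were Lrrc14b (0.86), Tmem65 (0.85), Pcnt (0.84), Tns1 (0.84) and Lrrc39 (0.84).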

How the data were processed

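RNA of tibialis anterior muscle was sequenced, with the libraries labelled as 2 sets. Per the labels and the submitters' processing notes, the authors checked reads with FastQC, trimmed them with cutadapt 1.7.1 (reads under 30 bases discarded), quantified them with RSEM 1.2.20 against the GRCm38 transcriptome (Ensembl release 76) and normalized with limma and edgeR. The deposited table is therefore used as a signal of normalized counts for 13809 genes (103 without a symbol), with a lowest value of 0.00476 and no 0. RSEM can split reads of near-identical copies, and depth is unknown, so counting errors could not be given.

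Groups were taken from the labels. Values were tested as log2(value + 1) with limma 3.58.1 in R 4.3.3, with a coefficient per group in each set (both sets together for the difference between sets), eBayes with trend, and genes reaching 1 in at least 1 library. The fit was tested on simulated data. Alternatives were other filters, pseudocounts, scalings, variance models, samples in the fit, a replicate block, a stricter threshold and each library left out. Nothing says whether replicates are separate animals beyond their labels, so p-values measure the spread between these libraries. Replicate libraries correlated at 0.959 to 0.991. Same-numbered basal and immobilized Sesn1SkM-Tg libraries deviated together in all 3 pairs (r = 0.18 to 0.23). No other immobilized against basal or denervated comparison had every pair over 0.1. Between Sesn1SkM-Tg and WT, same-numbered libraries had a median r of 0.39 in basal (-0.12 to 0.72) and 0.31 in immobilized muscle (-0.13 to 0.45). Between Sesn2SkM-Tg and WT the medians were -0.19 and -0.20. What the libraries share was not tested. The 8 genes and all lists were chosen with earlier results of these data known. Genes named from a list are the 2 called with the largest change in each direction, and small counts are named in full. Per-kb levels use GENCODE M21 exon unions.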

Additional observations from a re-analysis of the deposited data

Results flagged for a closer look

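Of 72 combinations of a gene and a group of 4 libraries, 3 held a library far from the other 3 (Dixon's test at the 95% level, by which chance alone picks about 1 in 20). Ppargc1b in basal Sesn1SkM-Tg replicate 3 was at 4.55, where the others were at 8.69 to 9.77. Esrrg in basal Sesn1SkM-Tg replicate 4 was at 25.0, against 20.4 to 21.1. Gabpa in basal WT replicate 4 of set 1 was at 20.7, against 39.0 to 42.4, and this is one of the 2 libraries in which GC-rich and short genes lay above their group means. The same 2 libraries held the highest Perm1 and Esrra and the lowest Ppargc1a and Gabpa of their groups.

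The fall of Perm1 with immobilization differed between the WT mice of the 2 sets by 1.48 on the log2 scale (SE 0.42, limma adjusted p = 0.027), by a test of the difference itself.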

How the results depend on the processing

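The members called changed little with the filter, pseudocount, variance model, median centring or quantile normalization, and most with the scaling of libraries, the fold threshold and single libraries. Immobilized against basal WT muscle of set 1 had 3 members called with equal library sums, 3 in a fit of the 2 groups alone, and 3 to 6 when 1 library at a time was left out, against 5. The difference between the sets had 0 to 1 called with 1 library left out. A threshold of 1 on the log2 fold change left 4 members in denervated and 2 in immobilized WT muscle of set 2 and 1 in immobilized Sesn1KO muscle. The share of all genes called is not given here for that threshold or for the fits of 2 groups alone, so these counts say nothing particular about the members. Immobilized Sesn2SkM-Tg against immobilized WT muscle had 1 member called in a fit of those groups alone. With equal sums 14 of 56 values of the treatment comparisons changed sign, 11 of them called on neither scale. The other 3 were Gabpa to 0.15 in denervated against basal muscle, and Tfam to 0.068 and Gabpa to 0.27 in denervated against immobilized muscle. Of the members' log2 fold changes with 1 library left out, 1243 stayed on their side of the threshold (98 of these, none called, with another sign), 22 lost a call and 7 gained one, and under the other settings these numbers were 1806 (35), 25 and 14. The replicate number as a block changed no member's call (7 were still called in denervated muscle). With both sets in 1 fit, Ppargc1a lost its call in immobilized WT muscle of set 2 (limma adjusted p = 0.094) and in Sesn1KO muscle (limma adjusted p = 0.15), and Gabpa after denervation (limma adjusted p = 0.073). For Sesn1SkM-Tg muscle, a block in a fit of the 2 groups alone, chosen after seeing the data, gave 4 members and -1.94 for Perm1 (limma adjusted p = 0.0017). Leaving out the 2 libraries that stand apart was also chosen after seeing the data. Per kb of the longest transcript instead of all exon sequence, Esrra, Tfam, Nrf1 and Gabpa moved by more than the spread between replicates, and Gabpa (7.76) lay above Ppargc1a (7.25) in basal WT muscle of set 2. The causes were not tested. Since depth is unknown, counting error at the low levels of Ppargc1b and Nrf1 could not be given.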
